A study of Mus musculus with 48 samples.

Results

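Arntl (also called Bmal1), Clock and Npas2 encode the transcriptional activators of the circadian oscillator. They were picked by gene symbol as the positive arm of the clock, whatever their measured values, and are 3 of the 12423 genes listed in both assays. Whole kidneys came from male C57BL/6JRj mice, 11 to 12 weeks old, kept for 2 weeks in a cycle of 12 h light and 12 h dark with lights on at Zeitgeber time (ZT) 0. They were taken every 2 h over the day, at 12 timepoints, and each timepoint had 2 replicate pools of 2 mice. The study's methods speak of 2 daily cycles, and whether the replicate series are different days is not given in the sources used here. RNA-seq, which measures transcript abundance, and RPF-seq, which sequences the mRNA fragments covered by translating ribosomes, were made from the same lysate of each pool, giving 24 libraries per assay. The labels name no mutation or treatment, and the groups differ in time of day.

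ARNTL is a bHLH-PAS protein that binds DNA as a dimer with CLOCK or with its paralog NPAS2. The dimer binds E-box elements and activates the Period and Cryptochrome genes, whose products repress it, and the genes of the REV-ERB nuclear receptors. REV-ERB proteins repress and ROR proteins activate through ROR elements, of which those in the Arntl promoter are the best known. The loop is found in most cells of the body, including those of the kidney, where clock factors take part in the daily rhythm of water and electrolyte handling.

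The ROR elements are shown first because they are the part of the Arntl promoter through which this loop is known to close. RefSeq promoter windows on GRCm38.p6, from 250 bases before to 50 bases after an annotated start, were found for all 3 genes. The windows of Arntl hold a repeated element whose common letters are AAAGTAGGT, which was chosen after the promoter had been read. Clock holds a match to the shorter ROR element core, AGGTCA or GGGTCA, in 1 of its 3 windows. Each stretch is written 5′ to 3′ on the strand of its gene, with 8 flanking bases on either side. Capitals mark the core in Clock, and in Arntl the 9 common letters with the 2 bases that follow them.
Arntl, chr7:113207493-113207519, plus strand: ttggtcggAAAGTAGGTTAgtggtgcg
Arntl, chr7:113207529-113207555, plus strand: gaaggcagAAAGTAGGTCAgggacgga
Clock, chr5:76303608-76303629, minus strand, with the core on the opposite strand: ttggcctcTGACCTgacagatg

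Both Arntl elements lie in exonic, noncoding sequence, the upstream one within the annotated UTR of 1 of 6 GENCODE vM21 transcripts and the downstream one within that of 2. The Clock match lies in no exon and inside 5 of 6 transcripts, that is in an intron. On either strand, AAAGTAGGT was in 60 of 32851 promoter windows (0.183%), and the full ROR element, which contains the core, in 126 (0.384%), among them the Arntl window with the downstream copy, which it overlaps. The core itself was in 27.5% of the windows. The Arntl window that holds only the upstream copy, chr7:113207215-113207514, had no match to the core or to the full ROR element. The single Npas2 window, chr1:39194022-39194321, had no match to the core, to the E-box CACGTG (7.15% of windows) or to the D-box TTATGTAA or TTACGTAA (1.06%). No E-box or D-box match was found in the windows of Arntl and Clock either. A match describes the letters of these windows and was not tested for binding.

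Levels are RPKM, reads on the coding sequence per kilobase, scaled to library size, so they can be compared between genes. The RNA-seq tables held 12728 genes and those of RPF-seq 12622, and tests covered the 11863 genes with a median of at least 0.5 RPKM in both, all 3 clock activators included. Relative depth, with the median library at 1, ran from 0.598 to 2.04 in RNA-seq and from 0.701 to 1.58 in RPF-seq. Replicate pools correlated across genes with a Spearman coefficient of at least 0.985 in RNA-seq and 0.984 in RPF-seq. The second ZT04 pool stood apart in RPF-seq, with 59 of the tested genes at 0 (median library 0), though none of the 3 genes was at 0 there. Kidney markers summed to between 44382 and 71521 RPKM in RNA-seq, chiefly from the proximal tubule gene Kap. The 5 endothelial markers summed to between 149 and 196 RPKM, the 3 measured of 5 immune markers to between 32.3 and 42.1 and the 6 measured of 8 hepatocyte markers to between 226 and 594. No measured marker was at 0 in all libraries. The sum of the 3 measured of 4 adipocyte markers was low, 0.532 to 9.03 RPKM, but followed a 3.42-fold curve over the day with its peak at ZT4.7. That of the 4 measured of 5 blood cell markers, 54.4 to 373 RPKM, followed a 1.97-fold curve with its peak at ZT14.4. Their part in the results below was not tested, and in whole kidney fewer cells of a type and less RNA per cell cannot be told apart.

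Arntl (ENSMUSG00000055116, chromosome 7, 113207465 to 113314126, plus strand of GRCm38) was high from late night to early morning and low around dusk. In RNA-seq the 2 pools had 20.9 and 19.8 RPKM at ZT00, 19.4 and 23.6 at ZT02, 11.3 and 8.26 at ZT04 and 4.55 and 4.72 at ZT06. They had 2.24 and 0.961 RPKM at ZT08, 0.615 and 0.927 at ZT10, 0.936 and 1.06 at ZT12 and 2.22 and 2.49 at ZT14. They had 9.89 and 10.9 RPKM at ZT16, 12.1 and 12.0 at ZT18, 19.3 and 20.8 at ZT20 and 23.9 and 21.7 at ZT22. The 4 timepoints from ZT20 to ZT02 were the highest, and the pools of ZT02 overlapped those of the other 3, so they have no firm order. ZT10 and ZT12 were the lowest, and the pools of ZT08 and ZT12 overlapped. The steepest step up was between ZT14 and ZT16, from a mean of 2.36 to 10.4 RPKM, with no overlap between the pools.

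Footprints on Arntl followed the same course. In RPF-seq the pools had 17.9 and 14.5 RPKM at ZT00, 15.6 and 14.3 at ZT02, 8.67 and 7.55 at ZT04 and 4.31 and 4.06 at ZT06. They had 1.80 and 0.597 RPKM at ZT08, 0.480 and 0.852 at ZT10, 0.325 and 0.898 at ZT12 and 1.52 and 1.38 at ZT14. They had 7.55 and 8.01 RPKM at ZT16, 9.06 and 8.95 at ZT18, 14.8 and 13.3 at ZT20 and 17.4 and 14.7 at ZT22. The mean was highest at ZT00, 16.2 RPKM, and lowest at ZT12, 0.611 RPKM, a 26.5-fold range that compares with 29.5-fold in RNA-seq. Both assays had their widest spread between pools at ZT08, where the first pool was 2.33-fold higher in RNA-seq and 3.02-fold higher in RPF-seq. The lowest values rest on few reads, 15 in RNA-seq at ZT10 and 14 in RPF-seq at ZT12, for which the 95% Poisson intervals, which cover counting error only, were 0.344 to 1.01 RPKM and 0.177 to 0.544 RPKM.

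**Figure D1:**
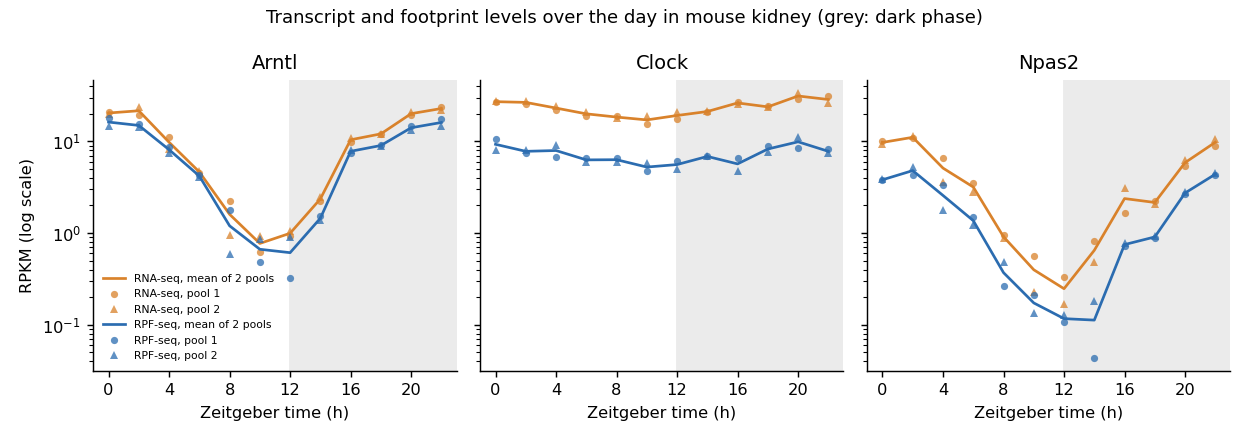
RPKM (log axis) of Arntl, Clock and Npas2 against Zeitgeber time, with RNA-seq in orange, RPF-seq in blue, a circle or triangle for each pool and a line through the mean of the 2 pools. Arntl and Npas2 fall by more than an order of magnitude between ZT02 and ZT12 in both assays, whereas Clock stays between 15.5 and 33.6 RPKM in RNA-seq and between 4.75 and 11.2 RPKM in RPF-seq.

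Clock (ENSMUSG00000029238, chromosome 5, 76209868 to 76304792, minus strand) was the most abundant of the 3 transcripts and varied least. In RNA-seq its pools had 26.8 and 27.3 RPKM at ZT00, 25.4 and 27.7 at ZT02, 21.7 and 24.3 at ZT04 and 18.8 and 21.0 at ZT06. They had 18.7 and 18.1 RPKM at ZT08, 15.5 and 18.7 at ZT10, 17.3 and 20.9 at ZT12 and 20.7 and 21.5 at ZT14. They had 26.8 and 25.6 RPKM at ZT16, 24.0 and 23.5 at ZT18, 28.7 and 33.6 at ZT20 and 31.2 and 26.0 at ZT22. ZT20 had the highest mean, 31.2 RPKM, and ZT10 the lowest, 17.1 RPKM, and many neighbours in between overlapped.

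Footprints on Clock were about as numerous per length as those on Arntl, in spite of its more abundant transcript. In RPF-seq its pools had 10.5 and 8.06 RPKM at ZT00, 7.46 and 8.10 at ZT02, 6.80 and 9.07 at ZT04 and 6.62 and 5.93 at ZT06. They had 6.63 and 5.98 RPKM at ZT08, 4.75 and 5.73 at ZT10, 6.16 and 5.00 at ZT12 and 6.84 and 6.84 at ZT14. They had 6.59 and 4.76 RPKM at ZT16, 8.87 and 7.61 at ZT18, 8.54 and 11.2 at ZT20 and 8.17 and 7.39 at ZT22. The range of the timepoint means was 1.88-fold in RPF-seq and 1.82-fold in RNA-seq, against a largest difference between replicate pools of 1.39-fold and 1.21-fold. At ZT16 the transcript had already risen while the footprints were still at a mean of 5.68 RPKM, near their lowest mean. The 1.39-fold difference between pools was at this timepoint, and only the second pool, with 4.76 RPKM, was near the lowest library. Each library held at least 516 reads on Clock in RNA-seq and 236 in RPF-seq.

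Npas2 (ENSMUSG00000026077, chromosome 1, 39193731 to 39363236, plus strand), the alternative partner of ARNTL, was the least abundant and had the widest range. In RNA-seq its pools had 10.1 and 9.40 RPKM at ZT00, 10.8 and 11.3 at ZT02, 6.65 and 3.56 at ZT04 and 3.54 and 2.81 at ZT06. They had 0.950 and 0.874 RPKM at ZT08, 0.566 and 0.230 at ZT10, 0.329 and 0.167 at ZT12 and 0.819 and 0.478 at ZT14. They had 1.66 and 3.10 RPKM at ZT16, 2.22 and 2.09 at ZT18, 5.42 and 6.30 at ZT20 and 8.99 and 10.5 at ZT22. The means of ZT02 and ZT12 differed 44.7-fold. Unlike the Arntl transcript, which was already at 10.4 RPKM at ZT16, the Npas2 transcript was at 2.38 RPKM at ZT16 and 2.16 RPKM at ZT18, and on its way up it first passed 5 RPKM at ZT20.

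Npas2 footprints fell to the edge of what these libraries can measure. In RPF-seq the pools had 3.75 and 3.87 RPKM at ZT00, 4.32 and 5.27 at ZT02, 3.36 and 1.78 at ZT04 and 1.51 and 1.22 at ZT06. They had 0.262 and 0.479 RPKM at ZT08, 0.210 and 0.136 at ZT10, 0.107 and 0.127 at ZT12 and 0.0440 and 0.181 at ZT14. They had 0.717 and 0.782 RPKM at ZT16, 0.890 and 0.925 at ZT18, 2.63 and 2.83 at ZT20 and 4.27 and 4.49 at ZT22. The lowest, 0.0440 RPKM in the first ZT14 pool, rested on 2 reads (95% Poisson interval 0.00533 to 0.159), and the second pool, with 7 reads, was 4.12-fold higher. The 42.6-fold range between ZT02 and ZT14 is therefore poorly bounded at its lower end, and the pools of ZT14 overlapped those of ZT10 and ZT12. At ZT04 the first pool was the higher one in both assays, 6.65 against 3.56 RPKM in RNA-seq and 3.36 against 1.78 RPKM in RPF-seq.

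Most of the daily output of Arntl and Npas2 was packed into the hours around lights-on. The 5 timepoints from ZT20 to ZT04 held 74.2% of the summed Arntl transcript level and 73.6% of its footprints, and 80.7% and 82.8% for Npas2. For Clock the same hours held 48.4% and 49.1%.

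All 3 genes were rhythmic in both assays. A 24-h cosine curve was fitted to log2(RPKM + 0.1) of every gene with limma, and a gene was called rhythmic at a Benjamini-Hochberg adjusted FDR under 0.05 with a fitted peak-to-trough fold of at least 1.5. By this rule 10.2% of the 11863 genes were called in RNA-seq and 7.58% in RPF-seq. The Arntl transcript had a fitted fold of 25.0 (95% interval 16.1 to 38.9, limma FDR 7.6e-12) and its footprints one of 25.3 (15.0 to 42.8, FDR 3.6e-10). The Npas2 transcript had a fold of 24.9 (16.2 to 38.4, FDR 7.6e-12) and its footprints one of 24.1 (16.9 to 34.4, FDR 2.5e-12). The size of these folds depends on the pseudocount, while the calls did not. With a pseudocount of 1 in place of 0.1, RNA-seq and RPF-seq folds were 14.01 and 12.04 for Arntl and 8.999 and 5.391 for Npas2, and with 0.01 they were 27.2 and 28.8 for Arntl and 31.2 and 40.6 for Npas2. At 0.1 they were the 3rd and 4th largest fitted folds among all genes tested, in RNA-seq and in RPF-seq alike. Clock ranked 741st in RNA-seq, with a fold of 1.64 (1.47 to 1.82, FDR 2.0e-07), and 768th in RPF-seq, with 1.60 (1.34 to 1.91, FDR 4.4e-04). The Clock footprint rhythm was no longer called when the first replicate series was left out (1.64-fold, FDR 0.11). The share of variance on the log2 scale that lay on the 24-h curve was 91.6% in RNA-seq and 88.6% in RPF-seq for Arntl, 91.9% and 94.3% for Npas2 and 82.1% and 59.5% for Clock. Without the ZT04 libraries, an alternative chosen after seeing the data, the folds in RNA-seq and RPF-seq were 24.7 and 24.8 for Arntl, 1.64 and 1.60 for Clock and 25.0 and 23.9 for Npas2. The adipocyte marker sum followed a 3.42-fold curve and the blood cell marker sum a 1.97-fold curve, and their part in the folds of the 3 genes was not tested.

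The transcripts peaked in the order Clock, Arntl, Npas2. The fitted RNA peaks were at ZT21.6 ± 0.389 h for Clock, ZT22.5 ± 0.252 h for Arntl and ZT23.7 ± 0.247 h for Npas2 (SE of the fit, 24 libraries). On the single cosine Arntl followed Clock by 0.916 h (95% interval 0.168 to 1.66) and preceded Npas2, with a difference of -1.26 h (-1.72 to -0.805). Clock against Npas2 differed by -2.18 h (-3.10 to -1.25). In RPF-seq the peaks were at ZT22.7 ± 0.299 h for Arntl, ZT22.7 ± 0.688 h for Clock and ZT24.0 ± 0.206 h for Npas2. In this fit the footprints of Arntl again preceded those of Npas2, with a difference of -1.30 h (-1.90 to -0.697). The intervals included 0 for Arntl against Clock (0.02 h, -1.64 to 1.68) and for Clock against Npas2 (-1.32 h, -3.00 to 0.351). All these differences and intervals assume a single cosine, and the 12-h term described below moves the peaks.

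Arntl and Npas2 could not be separated by amplitude. Their log2 peak-to-trough amplitudes differed by 0.00 in RNA-seq (95% interval -0.55 to 0.56) and by 0.07 in RPF-seq (-0.66 to 0.80). Arntl exceeded Clock by 3.93 in RNA-seq (3.34 to 4.52) and by 3.98 in RPF-seq (3.14 to 4.82). Clock against Npas2 differed by -3.93 (-4.56 to -3.30) and -3.91 (-4.58 to -3.24). This depends on how low values are treated, since with a pseudocount of 1 in place of 0.1 Arntl exceeded Npas2 by 0.64 and 1.16.

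The Arntl profile departed from a simple cosine. A 12-h component added to its 24-h curve had a fold of 2.23 in RNA-seq (limma FDR 0.0033) and of 2.42 in RPF-seq (FDR 0.017), where 0.598% and 0.7% of all genes had a 12-h component at an FDR under 0.05. With this term and all libraries the Arntl curve peaked at ZT24.0 in RNA-seq and ZT0.48 in RPF-seq, later than the single cosine. The Npas2 curve then peaked at ZT0.9 and ZT0.3, and the Clock curve at ZT21.7 and ZT21.9. The order of the transcripts was kept, but with all libraries the Arntl footprints no longer peaked before those of Npas2. Without the second replicate series the Arntl curve peaked at ZT21.4 in RNA-seq and ZT20.5 in RPF-seq. That was earlier than the single cosine of the same libraries (ZT22.6 and ZT22.9), and the Npas2 footprints peaked later, at ZT0.68. Without the first series the Arntl curve peaked at ZT0.06 and ZT0.36, and the Npas2 footprints at ZT0.02. No intervals were computed for these peaks. The Arntl values themselves form a broad plateau from ZT20 to ZT02, after the steep step between ZT14 and ZT16. With either replicate series alone the component did not pass (FDR 0.22 and 0.27 in RNA-seq, 0.21 and 0.77 in RPF-seq). The components of Npas2 were 1.67-fold and 1.40-fold and those of Clock 1.06-fold and 1.05-fold, and none of these passed (FDR 0.21 to 0.95).

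No shift of the footprint rhythm against the transcript rhythm was resolved for any of the 3 genes. The RPF peak minus the RNA peak was 0.206 h for Arntl (95% interval -0.048 to 0.460), 0.245 h for Npas2 (-0.209 to 0.699) and 1.10 h for Clock (-0.461 to 2.66). The log2 amplitude of RPF-seq minus that of RNA-seq was 0.02 for Arntl (-0.29 to 0.33), -0.03 for Clock (-0.31 to 0.25) and -0.05 for Npas2 (-0.60 to 0.50). All 6 intervals included 0. With a 12-h term in the curve, the peak differences were 0.50 h for Arntl, -0.60 h for Npas2 and 0.20 h for Clock, so the direction for Npas2 depends on the curve. With that term the direction for Arntl and Clock depended on the replicate series. Without the second series the RPF and RNA peaks were at ZT20.5 and ZT21.4 for Arntl and at ZT21.9 and ZT21.2 for Clock. Without the first they were at ZT0.36 and ZT0.06 for Arntl and at ZT21.9 and ZT22.7 for Clock.

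Translation efficiency (TE), the RPF RPKM over the RNA RPKM of the same pool, had no called rhythm in any of the 3 genes. TE was called rhythmic at an FDR under 0.05 in 17.1% of the genes tested. The fitted folds were 1.19 for Arntl (limma FDR 0.385), 1.15 for Clock (FDR 0.486) and 1.23 for Npas2 (FDR 0.627), the smallest unadjusted limma p was 0.233, and AIC selection chose the rhythmic model for none of them. For Npas2 this call depends on the pseudocount, since with a pseudocount of 1 the fold was 1.69 and passed (FDR 0.0007). At that setting Arntl did not pass but lay near the threshold (1.22-fold, limma FDR 0.055), and Clock did not pass (limma FDR 0.409). Pool by pool the Npas2 ratio is loosest where its reads are fewest, between 0.0537 in the first ZT14 pool and 0.762 in the second ZT12 pool. The Arntl ratio ran from 0.347 to 0.947, with its lowest value in the first ZT12 pool. The Clock ratio ran from 0.186 to 0.391, and its lowest timepoint mean, 0.216, was at ZT16.

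**Figure D2:**
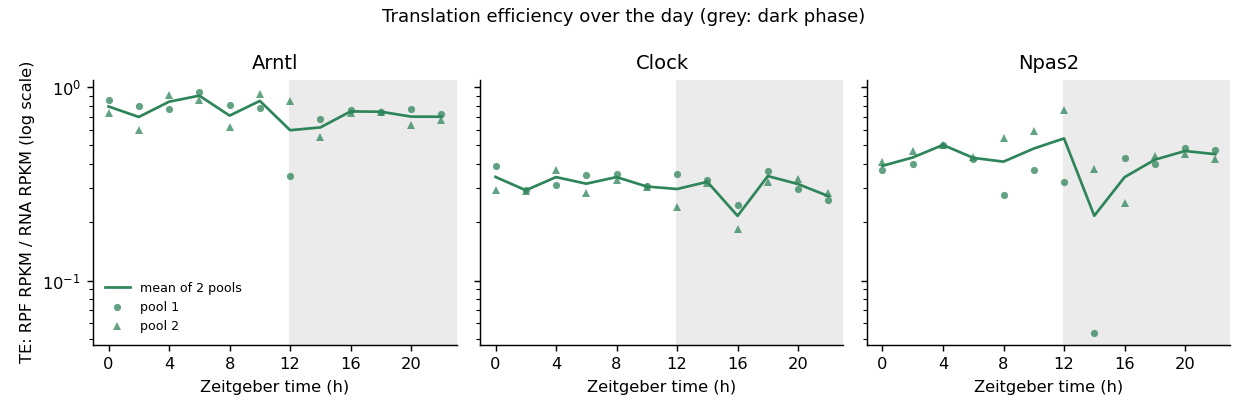
Translation efficiency, RPF RPKM over RNA RPKM of the same pool (log axis), against Zeitgeber time for the 3 genes, with a circle or triangle for each pool and a line through their mean. The Arntl means lie above those of Clock at all 12 timepoints, and the widest scatter is that of Npas2 between ZT08 and ZT14.

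The level of TE, in contrast to its rhythm, set the 3 genes apart. From daily means, Arntl had a TE of 0.740, Npas2 of 0.429 and Clock of 0.308, where the median gene had 0.956. These values lie at the 34.7th, 12.4th and 5.97th percentile of all genes. Against the median gene of the same pools, the TE was 0.784-fold for Arntl, 0.472-fold for Npas2 and 0.326-fold for Clock. Each gene lay below the median at all 12 timepoints (two-sided exact permutation of signs, adjusted p = 0.00049, the smallest that 12 timepoints allow). Arntl exceeded Clock in TE by 2.40-fold at 12 of 12 timepoints (exact adjusted p = 0.00073 over 9 pair comparisons) and Npas2 by 1.66-fold at 11 of 12 (exact adjusted p = 0.0013). Clock against Npas2 was 0.691-fold, lower at 11 of 12 (exact adjusted p = 0.0016), a difference that was 0.796-fold without the second replicate series and then did not pass (exact adjusted p = 0.071). The coding sequences over which reads were counted are 1878, 2565 and 2448 bases long for Arntl, Clock and Npas2.

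The 3 transcripts were ordered by level at all 12 timepoints, whereas the footprints of Arntl and Clock were not separated. In RNA-seq the mean over the day was 23.5 ± 4.46 RPKM for Clock, 10.6 ± 8.68 for Arntl and 4.29 ± 3.98 for Npas2 (SD of 12 timepoint means). Arntl was 0.274-fold Clock, lower at 12 of 12 timepoints, 2.52-fold Npas2, higher at 12 of 12, and Clock was 9.20-fold Npas2, higher at 12 of 12 (exact sign-flip tests, adjusted p = 0.00073 each). In RPF-seq the means were 7.85 ± 6.25 RPKM for Arntl, 7.23 ± 1.49 for Clock and 1.84 ± 1.75 for Npas2. Arntl against Clock was 0.658-fold by the geometric mean and did not pass (exact sign-flip test, adjusted p = 0.21), being below 1 at 5 of 12 timepoints, ZT06 to ZT14, and above it at the others, over a range from 0.115-fold to 2.05-fold. Npas2 footprints were lower than both at all 12 timepoints, by 4.19-fold against Arntl and 6.36-fold against Clock (exact adjusted p = 0.00073 each), and with a pseudocount of 1 by 2.67-fold and 3.42-fold.

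Since ARNTL needs a partner, its level was set beside the sum of Clock and Npas2. In transcripts this ratio was 0.382 for the daily means and stayed below 1 at all 12 timepoints, between 0.0436 and 0.594. In footprints it was 0.865 for the daily means and its timepoint mean was above 1 at 5 timepoints, with a highest value of 1.32 at ZT22. Both pools were above 1 at ZT00, ZT02, ZT16 and ZT22, and the pools lay on either side of 1 at ZT18 and ZT20. Npas2 made up 15.4% of the summed Clock and Npas2 transcripts over the day and 20.3% of their footprints. This share moved with the hour, from 1.33% at ZT12 to 29.4% at ZT02 in transcripts and from 1.61% at ZT14 to 38.1% at ZT02 in footprints. These are ratios of RNA and ribosome densities, and protein was not measured.

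**Figure D3:**
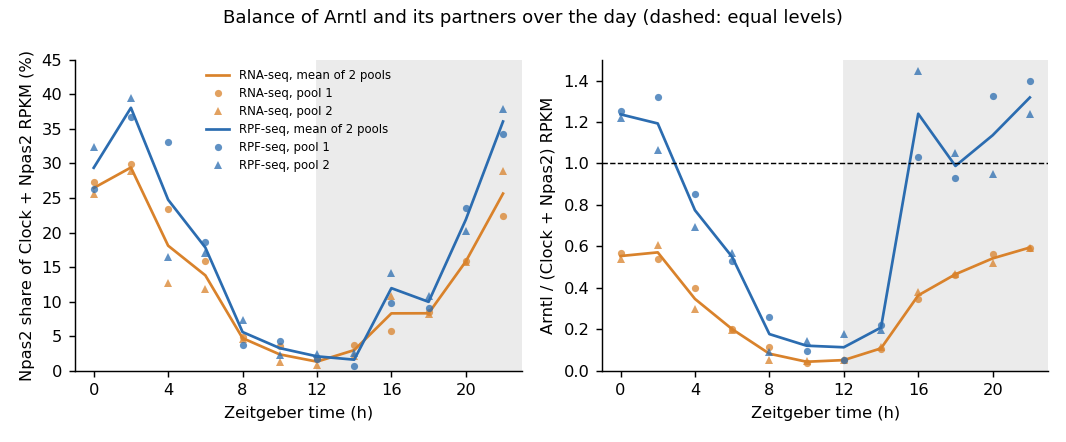
Left, Npas2 as a percentage of summed Clock and Npas2 RPKM, and right, Arntl RPKM over that sum, both against Zeitgeber time, with RNA-seq in orange, RPF-seq in blue, a circle or triangle for each pool and lines through their means. The Npas2 share is highest at ZT02 in both assays, and the Arntl ratio passes the dashed line at 1 in RPF-seq only.

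The 3 genes were correlated among themselves to differing degrees, described here over 24 libraries that share their time course, with no test. In RNA-seq Pearson's r of the log2 values was 0.922 for Arntl and Npas2, 0.898 for Arntl and Clock and 0.741 for Clock and Npas2. In RPF-seq the same coefficients were 0.895, 0.686 and 0.629. The profile most like that of the Arntl transcript was that of Slc16a1, a monocarboxylate transporter, with r of 0.982, a fitted fold of 4.24 and a peak at ZT22.8. Next came Leo1, a subunit of the PAF1 complex (0.965), Rdh10, a retinol dehydrogenase (0.958), Map3k5, a stress kinase (0.956), and Ndrg1 (0.945). Slc16a1 also led in RPF-seq (0.973), followed by Leo1 (0.971), Ndrg1 (0.968), the bile acid transporter Slc10a2 (0.945) and the methionine synthase Mtr (0.938). Likeness in shape did not mean likeness in size, as all 7 of these genes had fitted folds between 1.55 and 4.24 where Arntl had 25.

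Several of the profiles most opposed to Arntl belong to genes with E-box elements that the ARNTL dimer is known to bind. In RNA-seq they were Ciart (r of -0.955), a repressor of the dimer, Dbp (-0.951), a PAR bZIP transcription factor, Nr1d2 (-0.924), which encodes REV-ERB beta, the uridine phosphorylase Upp2 (-0.923) and Per3 (-0.915). In RPF-seq they were Ciart (-0.961), the vitamin transporter Slc5a6 (-0.939), Bhlhe41 (-0.923), the lysophospholipase Pnpla7 (-0.918) and Dbp (-0.909). Most like Clock were the integrin Itga6 (0.926), Cacul1 (0.915) and the transcription factor Tfec (0.909) in RNA-seq. In RPF-seq they were Rbm45 (0.871), BC004004 (0.870) and the disulfide isomerase Pdia3 (0.864), and no gene reached 0.9. Most like Npas2 were the vasopressin receptor Avpr1a (0.962), Ndrg1 (0.955) and the phosphatase Ppm1h (0.954) in RNA-seq, and the nuclear receptor Ppard (0.962), Cluh (0.957) and the mitochondrial protease subunit Clpx (0.953) in RPF-seq.

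The rest of the loop was read from the same fits. All 8 genes of the repressor limb were called rhythmic in both assays, where 10.2% of all genes were in RNA-seq and 7.58% in RPF-seq. Their median RNA fold was 5.15 against 1.20 over all genes. Their transcripts peaked between ZT10.7 for Ciart (27.4-fold) and ZT18.5 for Cry1 (7.04-fold). Per3 (6.09-fold), Per1 (4.21-fold) and Per2 (7.73-fold), of the Period family, peaked at ZT11.7, ZT12.3 and ZT14.7, and Cry2 (2.07-fold), Bhlhe40 (1.76-fold) and Bhlhe41 (3.82-fold) at ZT13.2, ZT13.6 and ZT11.0. Counted from the Arntl RNA peak, Ciart followed by 12.3 h and Cry1 by 20.0 h.

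All 7 E-box output factors were called in both assays too (10.2% and 7.58% over all genes), with a median RNA fold of 2.87. Nr1d1, which encodes REV-ERB alpha, peaked at ZT7.5 with a 21.7-fold range, 9.05 h after Arntl. Dbp peaked at ZT10.5 (42.1-fold) and Nr1d2 at ZT10.2 (4.84-fold), and Tef (2.87-fold), Wee1 (2.46-fold), Hlf (1.81-fold) and Nampt (1.66-fold) between ZT11.4 and ZT16.5.

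Of 5 regulators and targets of ROR elements, a list that repeats Nr1d1, Nr1d2 and Cry1, 4 were called in both assays (10.2% and 7.58% over all genes). Their list had a median RNA fold of 7.04. Nfil3, a repressor of D-box genes, peaked at ZT21.5 (8.43-fold), closest to Arntl among these. Rora, with a fold of 1.14 (FDR 0.18), was not called. TE was called rhythmic in 1 of the 8 repressor genes (Cry1), in 4 of the 7 output factors (Nr1d2, Hlf, Wee1 and Nampt) and in 3 of the 5 ROR-element genes (Nr1d2, Rora and Cry1). Over all genes tested 17.1% were called in TE, and on a single replicate series only 0 or 2 genes of all tested were.

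**Figure D4:**
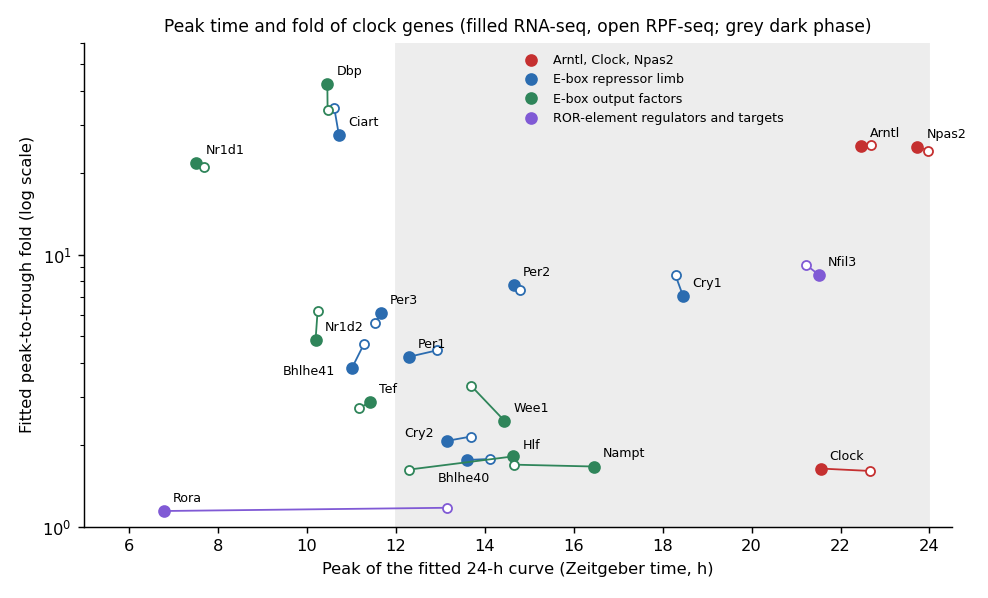
Fitted peak-to-trough fold (log axis) against the fitted peak time of Arntl, Clock, Npas2 and of the clock gene lists, with filled points for RNA-seq joined to open points for RPF-seq. Arntl and Npas2 stand together at the end of the night with folds near 25, Clock has a similar hour and a fold of 1.64, and the E-box genes peak between ZT7.5 and ZT18.5.

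Few of the relatives and cofactors of the 3 proteins passed the rhythm rule, as was the case over the whole set (10.2% for RNA-seq, 7.58% for RPF-seq). Among 10 tested bHLH-PAS relatives, which include Arnt, the hypoxia factors Hif1a and Epas1 and the p160 coactivators, 0 were called in either assay (limma), although 7 in RNA-seq and 5 in RPF-seq had an FDR, and the same numbers an unadjusted p, under 0.05 with a fold below 1.5. Over all genes the FDR alone was passed by 48.6% in RNA-seq and 30.9% in RPF-seq. The median fold of the relatives was 1.15 in RNA-seq, against 1.20 over all genes. Arntl2, the paralog of Arntl, was listed for RNA-seq only, at 0.167 to 0.620 RPKM (median 0.450), well under the daily mean of Arntl. Of 18 cofactors and modifying enzymes 2 were called in RNA-seq, the deubiquitinase Usp2 (2.09-fold) and Cipc (1.75-fold), which encodes a CLOCK-interacting repressor, and the median fold of the 18 was 1.14. In RPF-seq Usp2 (2.11-fold) and Rack1 (1.62-fold) were called. The FDR alone was passed by 7 of the 18 in RNA-seq and by 10 in RPF-seq. TE was called in 2 of the 10 relatives, Arnt and Hif1a, and in 5 of the 18 cofactors, Cipc, Kat2b, Kdm5a, Sirt1 and Gsk3b, where 17.1% of all genes were called, and on a single replicate series 0 or 2 genes of all tested were. Rack1 and the genes of this last count were named after their values had been seen.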

How the data were processed

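Kidney RNA-seq and RPF-seq libraries from the same pools were analysed from the RPKM values that the authors deposited, 1 table per library. In making them, the authors removed adapters (cutadapt), filtered reads by size, mapped them to rRNA, tRNA and cDNA (Ensembl) with Bowtie2 2.2.1 and to GRCm38 with TopHat2 2.0.11, took expressed transcript models from Cufflinks 2.2.1, counted reads on coding sequences and normalised libraries by upper quantiles with edgeR, so a change in total mRNA per cell cannot be seen. Any cutoff for listing a gene is not given in the sources used here. RPKM times coding length gave whole multiples of 1 read for 391 or more of 400 low genes per library (tolerance 0.01), from which reads and relative depth were recovered. RPKM values are not counts, so no count model was run.

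Rhythms were tested over 11863 genes with limma 3.58.1 in R 4.3.3 (lmFit, eBayes with a variance trend, moderated F test of 24-h cosine and sine terms on log2(RPKM + 0.1), a scale that understates changes of low genes, Benjamini-Hochberg adjustment). For TE the same test took the difference within pools. Levels of gene pairs were compared by exact sign-flip tests over 12 timepoints (4096 sign patterns, two-sided). Intervals of peak times and amplitudes are 95% delta-method intervals. These ran in Python 3.11.15 (scipy 1.17.1, numpy 2.4.6, pandas 2.3.3). The rhythm test was checked on simulated data after the real fit and not changed afterwards. Replicate numbers were not taken to pair pools of different timepoints. The differences between replicates correlated above 0.1 in 13 of 66 pairs of timepoints in RNA-seq and 10 of 66 in RPF-seq. The mean correlation was 0.029 and 0.020, and the highest was 0.480 and 0.185. Sign-flip p-values measure how consistent a difference was over the 12 timepoints, with the 2 pools of each averaged. The limma p-values rest on the spread about the fitted curve, which holds both differences between pools and misfit of the curve. Coordinates come from GENCODE vM21, a later annotation than the authors used.

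Genes named are the 3 activators, the genes most and least like them over 24 libraries (5 each way for Arntl, the 3 highest for Clock and Npas2), every measured gene of clock gene lists with 8 or fewer, and up to 4 called genes with the largest fold from the longer lists. One list is given without a gene that is not reported here. The genes, lists and tests were chosen with earlier results of these data known. Alternatives were a pseudocount of 1 or 0.01, a minimum median of 2 RPKM or no minimum, quantile normalisation, an added 12-h term, AIC selection, a replicate block, and leaving out each replicate series and each library.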

Additional observations from a re-analysis of the deposited data

How the results depend on the processing

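All 216 values with 1 library left out kept their direction and side of the threshold, with Arntl folds of 22.4 to 26.8 in RNA-seq and 21.6 to 27.5 in RPF-seq, Clock folds of 1.59 to 1.68 and 1.54 to 1.66, and Npas2 folds of 22.1 to 27.1 and 21.5 to 25.8. Of the values under other settings, 241 kept their call or lay within the limits set for untested values and counts, 17 moved beyond those limits, 6 lost and 1 gained a call, and the 6 folds added without ZT04 moved little. A kept call can hide a changed size, as with the Arntl and Npas2 folds at other pseudocounts. With a pseudocount of 1 the rhythmic genes numbered 781 in RNA-seq (1210 before) and 590 in RPF-seq (899 before), the Npas2 TE rhythm passed (1.69-fold), and the log2 amplitude differences in RNA-seq and RPF-seq were 3.13 and 2.98 for Arntl against Clock, 0.64 and 1.16 for Arntl against Npas2, and -2.49 and -1.83 for Clock against Npas2. With 1 replicate series left out the rhythmic genes numbered 722 and 1430 (RNA-seq) or 370 and 853 (RPF-seq), the Clock footprint fold was 1.59 to 1.64 (FDR 0.011 and 0.114), the Arntl 12-h component was 2.22 to 2.31 in RNA-seq and 2.20 to 2.79 in RPF-seq, and Clock against Npas2 in TE was 0.600 to 0.796. TE rhythms numbered 2028 in all, 0 and 2 with limma on a single series (1858 and 2545 at an unadjusted p under 0.05, 4816 and 5759 by AIC), 6354 by AIC and 964 with no replicate block over unpaired libraries. The replicate block gave 1214, 895 and 2161 rhythmic genes in RNA-seq, RPF-seq and TE and changed no call of the 3 genes. With the 12-h term in the curve and all libraries, the RPF peak minus the RNA peak was 0.50 h for Arntl, 0.20 h for Clock and -0.60 h for Npas2. On that curve the direction for Arntl and Clock depended on which replicate series was left out. Npas2 has no value at an RPKM minimum of 2, which removes it. A single series also has fewer samples, and the cause of these changes was not tested. Few reads limit the Npas2 and Arntl values from ZT08 to ZT14.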
